A study of Mus musculus with 9 samples.

Results

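The 10 genes described here are the Glis, Gli and Hedgehog pathway genes Glis3, Glis1, Glis2, Gli1, Gli2, Gli3, Ptch1, Hhip, Gas1 and Boc, measured in mouse RNA taken on postnatal day 3 (PND3). They were found by gene name among the probes that were not controls on 2 Agilent 2-colour arrays, which gave 17 probes on 44 spots. The arrays held 41174 probes on 43379 spots in all, under 27962 gene names. One group was a pool of RNA from 2 Glis3 mutant pups, homozygous for the allele written Glis3zf, and the other was a pool from 2 wild-type (WT) pups. Both pools were of strain C57BL/6, and the labels name no sex for the pups and give pancreas as the tissue. On the first array the mutant pool was in Cy3 and the WT pool in Cy5, and on the second the dyes were exchanged, so the pair holds 1 pool per genotype, measured again on a technical repeat. No test between genotypes is therefore possible, and agreement between the arrays shows how well these pools were measured, not how mice of a genotype vary.

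Hedgehog ligands bind Patched proteins such as Ptch1 and so release the membrane protein Smoothened, which acts through the primary cilium on the zinc finger factors Gli1, Gli2 and Gli3. Gas1 and Boc are coreceptors that help ligand bind, Hhip holds ligand back, and Gli1, Ptch1 and Hhip are themselves induced by the signal, which makes their RNA a common readout of it. The Glis (Gli-similar) factors share the zinc finger domain of the Gli proteins. Loss of Glis3 is known for neonatal diabetes and cystic kidneys, and loss of Glis2 for nephronophthisis, a kidney disease.

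The labelled tissue did not match the marker genes. Of 12 pancreatic endocrine marker genes, 8 had a brightest probe that passed the flag for a signal well above background on all 4 channels. Ins1, Gcg, Ppy and Mafa were among those that did not. Over the brightest probes of all 12 genes, the median scanner signal was 32.4 in the mutant and 29.5 in the WT pool. Of 15 kidney nephron marker genes 14 passed in the same way. Over all 15 the medians were 16353 and 13831, and Umod alone gave 47875 and 50921. The mutant and WT signals were 19035 and 21846 for the kidney gene Slc12a1, 88.9 and 94.7 for the insulin gene Ins2, and 43.5 and 56.7 for the acinar gene Cpa1. The flag is the scanner software's own mark for a spot brighter than its surroundings. The values below are therefore given for these pools, without naming a tissue.

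Each probe is a 60-base oligonucleotide. The Glis3 probe is shown because it reads the mutated gene, with cysteine codons of an open reading frame at bases 32 to 34 and 47 to 49 in capitals. The Gli1 probe, in full, is the member probe that gave the same sign on every repeat spot. For Glis2, Gli3 and Hhip the last 30 bases of both probes are shown, because the probes of a gene gave different signals or ratios, and capitals mark the polyadenylation signal AATAAA.
Glis3 A_52_P546200: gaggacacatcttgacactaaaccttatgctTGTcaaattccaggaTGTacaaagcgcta
Gli1 A_51_P518548: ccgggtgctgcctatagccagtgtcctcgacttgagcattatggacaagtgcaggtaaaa
Glis2 A_51_P366986: gctgctcaaaccagctgtggtaaactgaaa
Glis2 A_52_P108447: ttcagtattttaacaggttctaagtgcctt
Gli3 A_51_P171288: tcctgcagatgtgtaaAATAAActgtgttc
Gli3 A_51_P410070: ctgaaaaaccctaaggtattctaggggaga
Hhip A_51_P416822: ttctagtaggaaaatcttgtgtcttccttg
Hhip A_52_P249826: tacattgtatagtttctgggacagttcgag

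Of the 17 member probes, 13 passed the flag on both arrays in the mutant pool, the WT pool or both, and each of the 10 genes had at least 1 such probe. Only these 13 are counted below, against 30111 probes of the whole array that met the same condition. None of the 13 was 2-fold or more apart in 1 direction on both arrays, where 0.153% of all kept probes were. The mean log2 ratios of mutant over WT ran from -0.61 for Gas1 to 0.41 for Boc, with a median of 0.07 against -0.01 for all kept probes. Of the 13 probes, 7 were higher in the mutant pool on both arrays and 5 were lower on both, against 33.3% and 36.0% of all kept probes. Glis3 is 1 of these 5, and it was kept through the WT pool alone. Those ratios were computed after normexp background correction with an offset of 50 and loess, and the offset draws the ratios of dim probes toward 0, so the scanner software's own ratios are given beside them where they are far apart.

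**Figure D1:**
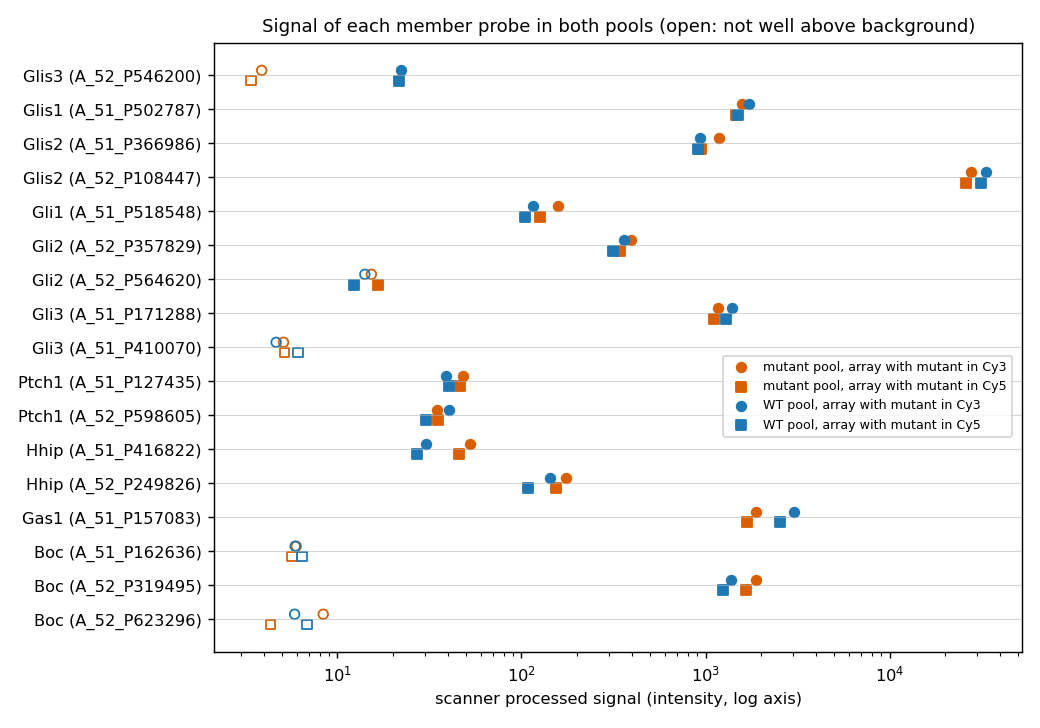
The horizontal axis is the scanner software's processed signal (intensity, log axis), with 1 row for each of the 17 member probes, mutant pool in orange and WT pool in blue, circles for the first array (mutant in Cy3) and squares for the second; open symbols were not well above background. The Glis3 probe is open in the mutant pool on both arrays, at 3.88 and 3.39, and filled in the WT pool at 22.1 and 21.5.

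Glis3, the mutated gene, stood at the level of negative control spots in the mutant pool. Its 1 probe gave a scanner signal of 22.1 in WT and 3.88 in mutant RNA on the first array, and 21.5 in WT and 3.39 in mutant RNA on the other. The WT pool was well above background on both arrays and the mutant pool on neither.

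Negative control spots, 153 per array, which are designed to bind no transcript, put these signals in place. In the mutant channels they had medians of 3.92 and 3.27, and 72 and 94 of the 153 were dimmer than the Glis3 probe. In the WT channels 151 and all 153 of them were dimmer than it. The Glis3 signal of the mutant pool thus lay in the middle of the negative controls, whereas that of the WT pool lay at their upper end.

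The scanner ratio of Glis3 was -2.51 and -2.66, with the software's own errors of 0.78 and 0.69, whereas the normalized ratio with the offset was -0.32 and -0.31. Because the mutant level is below what was measured reliably, only a bound can be set. For this the mutant level was raised to that of the dimmest probe well above background. By scanner signal Glis3 was then at least 1.34-fold higher in WT on the first array and 1.51-fold on the second, 1.42-fold on average. By normalized level the average bound over both arrays was 1.16-fold. These bounds take the WT signal as measured, without its error. The scanner ratio of Glis3, like that of 0.658% of all kept probes, lay past 2-fold on both arrays, but it is a ratio to a signal at background and no measured 2-fold difference. Of all kept probes 1.17% (353) passed the flag, like Glis3, on both arrays in WT but on none in the mutant, and 0.0465% (14) did so the other way round.

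The Glis3 probe sequence was searched for open reading frames and cysteine codons. Of its 3 reading frames 2 held no stop codon, and 1 of these, the second, held 2 cysteine codons with 4 codons between them. That spacing is the cysteine pair at the start of a zinc finger in the Gli and Glis families. Of all probes on the array 2.42% had such a pair in a frame free of stop codons, so the pattern alone does not name a zinc finger. The sources used here do not state which bases the zf allele removes, and the probe reads only its own site, so the rest of the mutant transcript was not measured.

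Glis1, a Gli-similar factor of the same subfamily as Glis3, differed little between the pools. Its probe gave 1586 in mutant and 1729 in WT RNA on the first array, and 1470 and 1502 on the other. The log2 ratios were -0.06 and -0.09, smaller than the scanner error of 0.20 on each array, and 23.2% of all kept probes were at least as far apart in that direction on both arrays.

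Glis2, the other Gli-similar factor, was read by 2 probes that pointed in opposite directions. The bright probe A_52_P108447 gave 27488 in mutant and 33247 in WT RNA on the first array, and 25875 and 31432 on the other. Its log2 ratios were -0.32 and -0.22, lower in the mutant pool on both arrays. The dimmer probe A_51_P366986 gave 1180 and 936 on the first array and 943 and 905 on the second, with log2 ratios of 0.37 and 0.02.

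That dimmer probe had a gap of 0.35 between arrays, the widest of the 13 member probes and above the 95th percentile of 0.324 for all kept probes. The probes share no run longer than 7 bases, so they read separate sites of the transcript, and no common direction can be given for Glis2. With median centring in place of loess the dimmer probe was at 0.28 and -0.21, and the bright one at -0.69 and -0.40. Under median centring all kept probes had a median of -0.08, against -0.01 with loess.

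Gli1, the Gli factor that hedgehog signalling itself induces, was higher in the mutant pool on all 10 spots of its probe on both arrays. On the first array, the 10 spots had a mean signal of 158 in mutant RNA (130 to 176) and of 116 in WT RNA (85.8 to 140). On the other array the means were 126 (105 to 147) and 104 (79.3 to 117). The ranges of the pools overlapped on both arrays, although each spot gave a ratio above 0.

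The log2 ratio of Gli1 was 0.28 ± 0.08 (SD, n = 10 spots) on the first array and 0.14 ± 0.08 (SD, n = 10 spots) on the second. These spots share 1 pair of RNA pools, and their SD describes printing and scanning only. The spread was close to that of the 204 kept probes printed on 10 spots, whose SDs had a median of 0.0594 and ran from 0.021 to 0.188. The scanner ratios of Gli1 were 0.45 and 0.28, and 11.3% of all kept probes had normalized ratios at least as far up on both arrays.

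Gli2, the main activator among the Gli factors, had 1 kept probe, A_52_P357829, with 392 in mutant and 359 in WT RNA on the first array and 341 and 313 on the second. Its log2 ratios of 0.03 and 0.11 turned to -0.03 and -0.06 with median centring. The other Gli2 probe, A_52_P564620, was well above background on 1 of the 2 arrays and was left out of the counts.

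Gli3, which acts largely as a repressor when ligand is absent, was read only by the probe that ends near a polyadenylation signal. That probe, A_51_P171288, gave 1166 in mutant and 1397 in WT RNA on the first array and 1112 and 1285 on the second. The mutant pool was lower on both, with log2 ratios of -0.26 and -0.17. The AATAAA of its sequence ends 8 bases before the end of the probe, and 7.49% of all probes on the array hold this signal or ATTAAA.

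The second Gli3 probe, A_51_P410070, was printed on 10 spots per array and was not well above background on any spot in either pool. Its mean signals were 5.10 in mutant and 4.65 in WT RNA on the first array and 5.16 and 6.11 on the second. A gene that 1 probe reads clearly can thus be at background by another, and for Gli3 the ratio rests on a single probe and site.

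**Figure D2:**
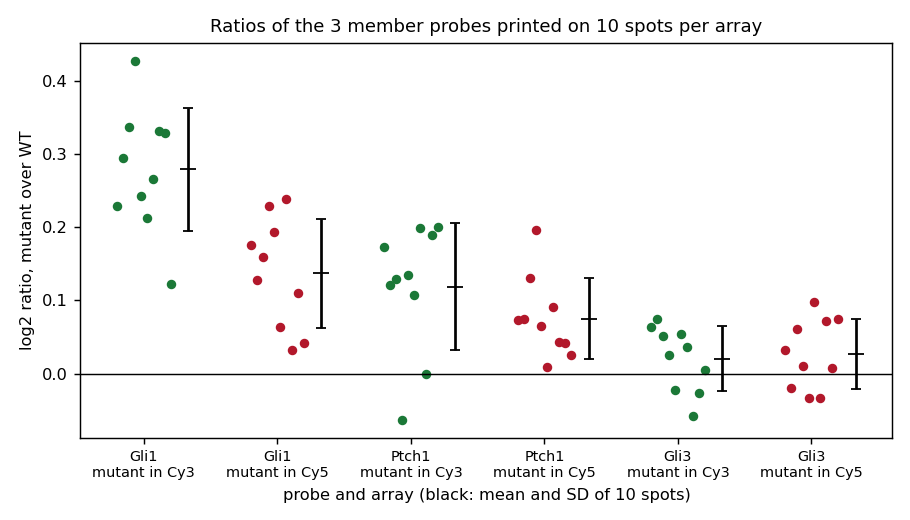
The vertical axis is the log2 ratio of mutant over WT on each of the 10 spots of the Gli1, Ptch1 and Gli3 probes printed repeatedly, by array (green, first array; red, second array), with the mean and SD over spots in black. All Gli1 spots lie above 0 on both arrays, while the dim Gli3 probe A_51_P410070 scatters about 0 with means of 0.02 and 0.03.

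Ptch1, the receptor for hedgehog ligands and a target of the pathway, was dim, and its probes did not give 1 direction. Its probe A_51_P127435, on 10 spots per array, had a mean signal of 48.4 in mutant and 38.7 in WT RNA on the first array and of 46.4 and 40.3 on the second. The log2 ratio was 0.12 ± 0.09 (SD, n = 10 spots) and 0.08 ± 0.06 (SD, n = 10 spots), with 8 and 10 of the 10 spots above 0, and the scanner ratios were 0.30 and 0.20. The second probe, A_52_P598605, changed sign with the array, at -0.14 and 0.10, so it gives no direction, and its sequence has a GC content of only 21.7%.

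Hhip, the ligand-binding antagonist and pathway target, was higher in the mutant pool by both of its probes on both arrays. Probe A_52_P249826 gave 174 in mutant and 142 in WT RNA on the first array and 154 and 108 on the second. Its log2 ratios were 0.17 and 0.32 with the offset and 0.29 and 0.51 by the scanner software. The dimmer probe A_51_P416822 gave 52.6 and 30.4 on the first array and 46.0 and 27.0 on the second.

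In that dimmer Hhip probe the mutant pool was above the WT pool on both arrays. Its log2 ratios were 0.25 and 0.27 with the offset and 0.79 and 0.77 by the scanner software, against software errors of 0.30 and 0.28. Of all kept probes 0.242% were at least as far up on both arrays by the scanner ratio and 4.09% by the normalized ratio, so the size of the Hhip difference depends on how background was treated.

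The coreceptors Gas1 and Boc were the member genes farthest apart by normalized ratio, and in opposite directions. Gas1, a membrane-anchored coreceptor, gave 1891 in mutant and 3022 in WT RNA on the first array and 1684 and 2546 on the second. The mutant pool was lower on both arrays, with log2 ratios of -0.59 and -0.63. By normalized ratio Gas1 was the 1 member probe at least 1.5-fold apart on both arrays. Of all kept probes 0.731% were so far apart, and 0.515% were lower by as much. By scanner ratio the dimmer Hhip probe, at 0.79 and 0.77, was also past 1.5-fold on both arrays. So was Glis3, with its mutant signal at background. By that ratio 0.242% of all kept probes were at least as far up as Hhip, and 0.0764% as far down as Glis3. Calls were more common by scanner ratio, at 0.658% of all kept probes for 2-fold, against 0.153% by normalized ratio.

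Boc, a coreceptor of the immunoglobulin and fibronectin type, was read by 1 of its 3 probes. Probe A_52_P319495 gave 1890 in mutant and 1368 in WT RNA on the first array and 1658 and 1251 on the second. The mutant pool was higher on both arrays, with log2 ratios of 0.38 and 0.44, and 1% of all kept probes were at least as far up on both. Its other probes, A_51_P162636 and A_52_P623296, had signals from 4.33 to 8.38 in both pools and were not well above background on either array. Under median centring the Boc ratios were 0.28 and 0.20 and those of Gas1 -0.71 and -0.89.

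**Figure D3:**
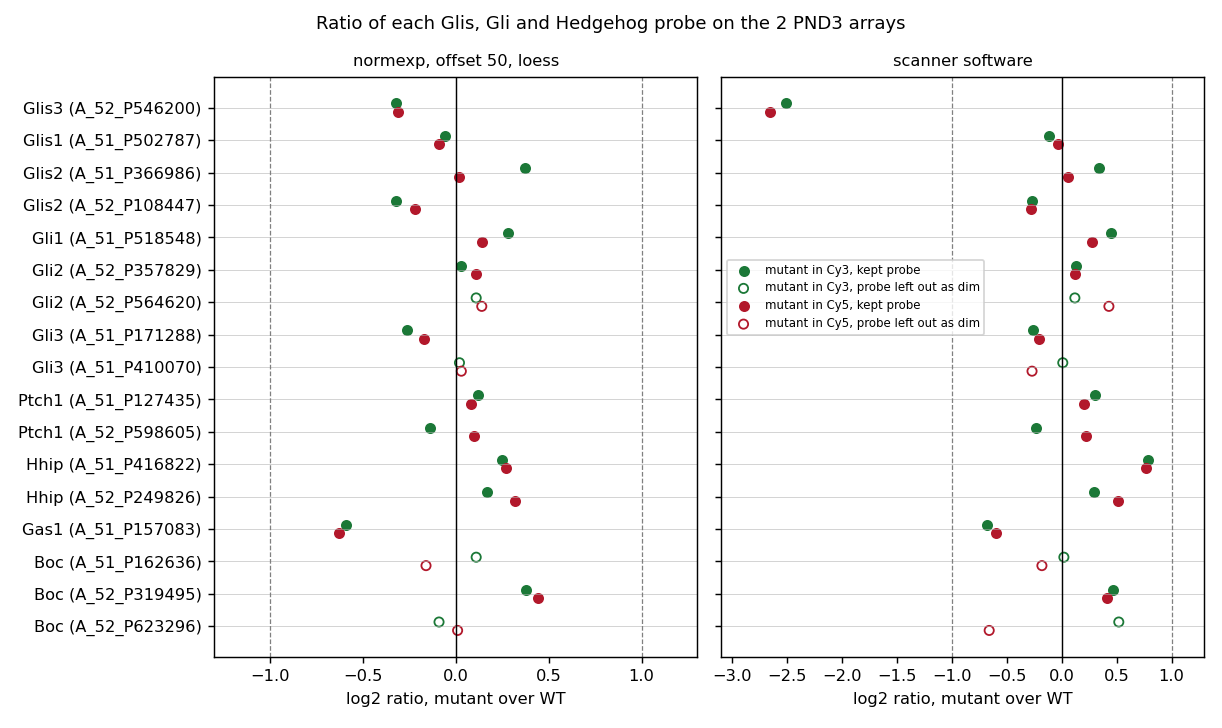
The horizontal axis is the log2 ratio of mutant over WT for each of the 17 member probes on the first array (mutant in Cy3, green) and the second (mutant in Cy5, red), from the normalization with an offset of 50 on the left and from the scanner software on the right; open points are dim probes left out of counts, and dashed lines mark 2-fold. Gas1 lies lowest on the left at -0.59 and -0.63, and Glis3 lies far below 2-fold only on the right, at -2.51 and -2.66, where its mutant signal was at background.

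Of the 13 kept probes 12, all but that of Glis3, passed the flag in both pools on each array, as did 28977 of all kept probes. By the scanner software's own error, 2 of these 12 had ratios more than 2 times their error on both arrays, against 4.26% of the 28977. They were the dimmer Hhip probe and the probe of Gas1. A further 5, those of Gli1, Boc, the bright Glis2 probe, the Gli3 probe and the brighter Hhip probe, were above 1 times the error on both arrays, which with the former makes 7 of 12 against 20.4%. The normalized ratios of the member probes differed between arrays by a median of 0.0767, against 0.106 for all kept probes.

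The other genes of the pathway are given by lists, with the brightest kept probe named for each gene. Of the 9 genes for hedgehog ligands and their release 8 had a kept probe, and of 13 kept probes 10 were higher and 3 lower in the mutant pool on both arrays, with a median log2 ratio of 0.11. Of all kept probes 33.3% were higher and 36.0% lower on both arrays, shares that apply to the lists below as well. Median centring moved the median of all kept probes from -0.01 to -0.08. It moved that of the bright kidney nephron list from -0.05 to -0.25. Turns of sign under median centring, given below, were not set apart from this wider shift. No probe of any list of the pathway was 2-fold apart on both arrays, where 0.153% of all kept probes were. Scube2, which helps release ligand, stood at 0.58 and 0.42 on the arrays and Scube3 at 0.28 and 0.23. Disp1, which exports ligand, stood at -0.33 and -0.53 by its brighter probe and at 0.10 and 0.12 by the other, so it has no common direction.

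Ihh, the ligand Indian hedgehog, was higher in the mutant pool by both of its probes. The brighter had mean signals of 498 in mutant and 380 in WT RNA, with log2 ratios of 0.43 and 0.23. The other had 466 and 257, with log2 ratios of 0.74 and 0.67, the largest of the pathway lists. Desert hedgehog (Dhh), with 1009 and 976, and Sonic hedgehog (Shh), with 42.7 and 38.3, stood at mean log2 ratios of 0.03 and 0.06, and Dhh turned to -0.13 with median centring.

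Among 7 other receptors and coreceptors 14 probes were kept, of which 5 were higher and 5 lower on both arrays, with a median of 0.02. With median centring that median was -0.13. Smo, which encodes Smoothened, stood at 0.21 and 0.06 by a bright probe, which turned to a mean of -0.13 with median centring, and at 0.55 and 0.33 by a dimmer one. Lrp2, a large endocytic receptor that the kidney nephron list also holds, stood at -0.18 and -0.16, and its other 3 kept probes were also lower on both arrays. The glypican Gpc4 stood at 0.20 and 0.03 by its brighter probe and at -0.16 and -0.24 by the other, so it has no common direction.

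The 20 intracellular regulators gave 39 kept probes, 14 higher and 10 lower on both arrays, with a median of 0.01 that became -0.13 with median centring. Sufu, the inhibitor that binds the Gli factors, stood at -0.17 and -0.15 by its brightest probe, and its dimmer kept probes at 0.08 and 0.01 on average. The 4 genes farthest apart by their brightest probe were Cul3, a ubiquitin ligase scaffold, at -0.20, the kinase Grk2 at -0.19, the kinase Stk36 at -0.17 and Prkar1a, a subunit of protein kinase A, at -0.16. The other kept probes of Grk2 stood at means of 0.13 and 0.11 and those of Stk36 at -0.04 and 0.04, so the ratio of neither gene rests on more than its brightest probe. Over all 39 probes the mean ratios ran from -0.20 to 0.22.

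Of 16 genes described as hedgehog targets 15 had a kept probe, and of 23 kept probes 15 were higher and 3 lower on both arrays, where 33.3% and 36.0% of all kept probes were, with a median of 0.10 that became 0.04 with median centring. Bmp4, a growth factor, stood at 0.50 and 0.39, the transcription factor Osr1 at 0.26 and 0.51, cyclin Ccnd2 at 0.36 and 0.21 (a mean of 0.03 with median centring) and the nephron progenitor factor Sall1 at 0.33 and 0.18. With median centring Ccnd1, Bcl2 and Foxc2 turned from means of 0.10, 0.06 and 0.07 to -0.15, -0.14 and -0.15. Foxf1, a mesenchymal target, was dim, and its mean log2 ratio of -0.10 turned to 0.04 with median centring. Many of these genes have other regulators, so the list is not specific to the pathway, and the cause of its ratios was not tested.

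Of the 5 Zic genes, whose zinc fingers resemble those of the Gli factors, Zic1 and Zic4 had a kept probe, with mean log2 ratios of -0.13, which turned to 0.03 with median centring, and -0.21. Zic1 was dim, at 8.82 in mutant and 18.5 in WT RNA, and its scanner ratios were -0.96 and -1.2, with a mean of -1.08. Its mutant signal was below the dimmest mutant signals well above background, 16.5 and 14.2 on the arrays. Zic1 was thus kept through the WT pool alone, and its ratio, like that of Glis3, is no measured 2-fold difference. The scanner ratios of Zic4 were 0.03 and -0.74. The 16 genes described beside Glis2 and Glis3 in cilium and kidney disease gave 27 kept probes, 10 higher and 7 lower on both arrays, with a median of 0.02 that became -0.04 with median centring. Nek8, a nephronophthisis gene, stood at 0.29 and 0.39 by its brighter probe and 0.33 and 0.36 by the other, and Iqcb1 at 0.38 and 0.13. By their brightest probes the polycystic disease genes Pkd2 and Pkhd1 stood at -0.19 and -0.18, and Wwtr1, a coactivator of Glis3 also called TAZ, at -0.13. Other kept probes were higher on both arrays, at means of 0.12 for Pkd2, 0.27 and 0.11 for Pkhd1 and 0.19 for Wwtr1, so these genes have no common direction.

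**Figure D4:**
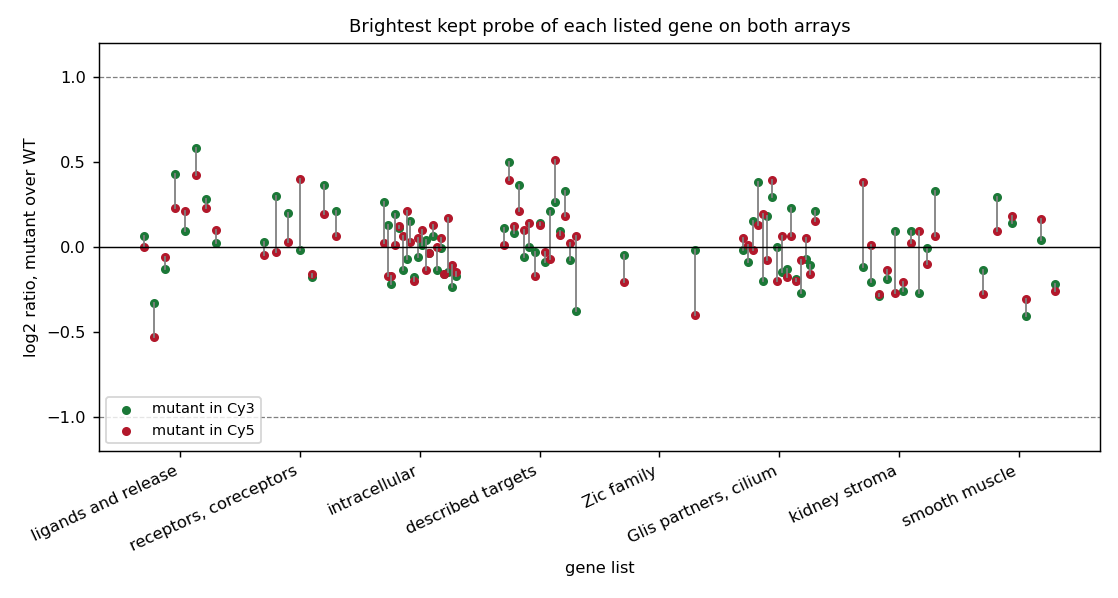
The vertical axis is the log2 ratio of mutant over WT of the brightest kept probe of each gene, by gene list, with green points for the first array (mutant in Cy3), red for the second (mutant in Cy5) and a grey line joining the 2 values of a gene; dashed lines mark 2-fold. No gene reaches 2-fold, and Scube2 at 0.58 and 0.42 and Disp1 at -0.33 and -0.53 are among the farthest from 0.

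Markers of other cell types also differed between the pools. Of 9 kept probes of ovary and oocyte genes 8 were at least 2-fold lower in the mutant pool on both arrays. Of all kept probes 0.153% were 2-fold apart. The other probe, of Foxl2, stood at 0.02 and 0.18. Only 6 of the 8 genes passed the flag in both pools by their brightest probe. The mutant signal of Nlrp14, at 5.59, was below the dimmest mutant signals well above background, 16.5 and 14.2. The summed signal of the list was 501 in the mutant and 2940 in the WT pool. Fat markers were lower with all 10 kept probes, at a median of -0.61 and summed signals of 59569 and 71070. In the duct list the median was 0.21, with Krt18 at 0.89 and 0.78, and sums of 268351 and 212887.

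Kidney stroma, a cell type in which hedgehog responses are known, was measured with all genes of its list. Its 10 genes gave 20 kept probes, 5 higher and 8 lower on both arrays, with a median of -0.07 (-0.19 with median centring) and summed signals of 206414 in the mutant and 203223 in the WT pool, and all 10 genes passed the flag in both pools. By their brightest probes the stromal markers Foxd1 and Pdgfra stood at -0.28 and -0.24, Tcf21 at 0.19 (-0.07 with median centring) and Meis1 at -0.16, while the dimmer probe stood at -0.31 for Foxd1, 0.07 for Pdgfra and -0.01 for Meis1. Smooth muscle genes had a median of 0.07 over 8 kept probes (-0.11 with median centring), with Myocd at -0.36 (0.03 by its dimmer probe), Tshz3 at -0.24, Cnn1 at -0.21 and Des at 0.19. The part of these cell types in the ratios of Glis3, Hhip, Gas1, Boc and Ihh was not tested, and with pools of whole tissue fewer cells of a type and less RNA per cell cannot be told apart.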

How the data were processed

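The 10 genes and all lists were chosen with earlier results of these data known. PND3 RNA (500 ng per pool) was amplified and labelled with Cy3 or Cy5, per the labels' protocols. The scanner files deposited by the authors hold spot and background intensities, processed signals, log10 ratios of Cy5 over Cy3 with an error, and other columns of quality flags, per the file headers. Per the submitters' processing notes the software was Agilent Feature Extraction 8.1, and the file headers give 9.1.3.1. The deposited value table holds log2 ratios that followed the scanner's ratios turned to mutant over WT (r = 0.9996 and 0.9997, median 0 in each column).

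In R 4.3.3 with limma 3.58.1, background was corrected by normexp (offset 50), ratios were normalized by loess (control spots were given weight 0), and ratios of the first array, with the mutant in Cy3, were turned in sign, so a dye effect cancels in the mean of both arrays. The steps were tested on simulated data. Outlier spots (18 and 26) were left out, no spot was saturated, and spots of a probe were averaged. A probe was kept if well above background in the same genotype on both arrays (most of its spots), and called at 2-fold or more in 1 direction on both. Arrays correlated at 0.676 over kept probes. Accessions of 10 of the 17 member probes matched RefSeq (GRCm38.p6 table, names only). All member probes are named. Of each pathway list the called genes and up to 4 genes with the largest ratio of 1 sign are named. Of the marker lists Slc12a1, Umod, Ins2 and Cpa1 are named. Shh, Dhh, Sufu, Foxf1, Wwtr1, Ccnd1, Bcl2, Foxc2, Krt18, Foxl2, Nlrp14, Ins1, Gcg, Ppy and Mafa were added after their values were seen. So were second probes of list genes. One list gene that the rule names is not reported here. With 2 arrays of 1 pair of pools no likeness of pattern between genes was computed. The E15.5 arrays (3 WT, 4 mutant) were not used here, because their probe sets were not paired with gene names.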

Additional observations from a re-analysis of the deposited data

How the results depend on the processing

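Alternatives were the scanner software's ratios, the deposited value table, an offset of 16, median centring, either array alone, other filters on dim probes and a fold of 1.5. No member probe was 2-fold apart on both arrays by normalized ratio. This count was 1 (Glis3) with the scanner software's ratios, 1 (Glis3) with the value table and 1 (Gas1) with normalized ratios at a fold of 1.5. The mutant signal of Glis3 was at background, so its call is no measured 2-fold difference, and the cause of the move was not tested. The count stayed at 0 under the other 6 alternatives. The median over the pathway lists was 0.05 and became -0.09 with median centring, under which all kept probes had a median of -0.08. Of 78 recomputed member ratios, 24 moved by more than 0.12, the SD between arrays over all kept probes, and 3 changed sign, in the Gli2 probe A_52_P357829 and the Ptch1 probe A_52_P598605. No paired analysis was possible because the PND3 values come from no test and the E15.5 test was not run, nor were its alternatives (replicate block, median scaling, pseudocount, filter, leaving out arrays). Signal over background limits Glis3, Ptch1, Hhip, Zic1 and Shh, which are dim.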
